A study of Mus musculus with 4 samples.

Results

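The adult hemoglobin transcripts of the mouse retina were followed through 6 cell-class columns of a long-read isoform table. The 4 genes are Hbb-bs and Hbb-bt, which encode the beta chain, and Hba-a1 and Hba-a2, which encode the alpha chain. They were taken by symbol from the Ensembl identifier that closes each isoform name, and were chosen from these same counts, because an abundant unannotated Hbb-bs isoform had already been seen in them. All 4 had a row, with 9 isoforms of 44325 in the table and 4 of its 13452 Ensembl genes. Because levels, isoform shares and unevenness belong to that choice, they are given as descriptions without a test.

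The retinas of male mice, wild type and of the inbred strain C57BL6/J, were dissociated with papain into single cells for 4 libraries of the 10x Genomics type, read as full-length cDNA on a nanopore instrument. Of these, 2 libraries had no enrichment, 1 of them from postnatal day 40 and the other without a stated age. A library labelled CD73 enrichment came from postnatal week 8, and the protocol describes removal of CD73-positive photoreceptors. A library labelled CD90.2 enrichment came from postnatal month 4. CD90.2, the Thy1 protein, is carried by ganglion cells and other neurons.

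The columns name a class and no library, so each class is 1 sample without replicates and no difference between columns could be tested. Intervals are exact 95% intervals for counting error only, with each count taken as independent. Where several reads come from 1 molecule, which is not known here, they are too narrow. Column totals ran from 3509890 counts in ganglion cells to 55437340 in rods, and levels are given as counts in every 1000000 of a column (CPM). Of 34 class markers with a row, 33 peaked in the matching column, and Dkk3 of the Müller glia list did not (48.8 CPM there, 58.1 CPM in amacrine cells). No column is labelled for red blood cells, microglia or vessels.

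Hemoglobin carries oxygen in red blood cells as a tetramer of 2 alpha and 2 beta chains, each holding a heme group. Its messenger RNAs are among the most abundant in immature red cells, and a tissue that is not flushed of blood brings them along. Transcripts of hemoglobin have also been described in some neurons and glia. The beta genes lie next to each other on chromosome 7 and the alpha genes on chromosome 11, and each pair arose by duplication.

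The structure of the isoforms is given first, because it decides how the counts can be read. Nearly all Hbb-bs counts belonged to an unannotated model with 4 exons (chromosome 7, 103826534 to 103828096, minus strand, build mm10, the same coordinates as GRCm38). It had 217483 of 217657 Hbb-bs counts (99.9%). The gene stood first by counts among 903 genes with at least 99% of their counts in unannotated isoforms. Such genes were 12.3% of the 7329 genes with at least 2 isoforms and 100 counts, and 29.1% of these genes had an unannotated isoform as the most abundant. Both shares are background only, since this isoform is why the gene was chosen.

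The Hbb-bs model was assembled from introns that GENCODE M21 already holds. All 3 of its introns were annotated, but 0 annotated transcripts contained all 3. The last 2 introns were those of the main Hbb-bs transcript (ENSMUST00000023934.7), which has 3 exons. The first intron was that of ENSMUST00000153218.1, a partial transcript of 407 nt whose annotation ends inside exon 2 of the main transcript. Neither annotated transcript had a row of its own in the table. The files used here give counts per isoform and none per splice junction, so the number of reads that crossed the first intron is not known.

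The upstream exon of the model was 85 nt long (103828012 to 103828096) and ended 83 nt before the annotated start of the main transcript. An intron of 125 nt followed. Exon 1 then began inside the annotated exon and lacked its first 42 nt, which left 103 of 145 nt. The annotated start codon was kept, at 103827873 to 103827875. The stretch before the start codon was 96 nt in the model and 53 nt in the main transcript, so the models differ before the coding sequence and not within it.

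The promoter is shown because the upstream exon lies across it. The window is chr7:103827929-103828178 on the minus strand of GRCm38.p6, from RefSeq, read 5′ to 3′ up to the last base before the annotated start. The upstream exon is in capitals, and the donor GT of its intron follows directly.
Hbb-bs promoter: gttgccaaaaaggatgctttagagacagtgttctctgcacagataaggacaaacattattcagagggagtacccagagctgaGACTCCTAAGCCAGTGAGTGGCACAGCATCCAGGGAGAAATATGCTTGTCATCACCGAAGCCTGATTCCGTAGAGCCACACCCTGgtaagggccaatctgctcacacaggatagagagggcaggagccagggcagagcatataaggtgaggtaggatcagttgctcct

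The other end of that intron falls inside the annotated exon 1. The window chr7:103827879-103827908 holds the last bases of the intron, its acceptor AG in capitals, and the first 8 bases of the shortened exon.
Hbb-bs acceptor: ttgtgttgactcacaaccccAGaaacagac

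In the RefSeq window of the gene, which runs from 250 bases before the start to 50 after it, the letters TATAA stood 25 bases upstream of the start and CCAAT stood 72 bases upstream. Both were inside the intron of the model. CACCC stood 86 bases upstream, in the last bases of the upstream exon. Searched on both strands, these letters were found in the windows of all 4 hemoglobin genes. TATAA was in 24.9%, CCAAT in 37.4% and CACCC in 57.5% of 32851 windows of the same length, so none is rare. AGATAA, searched the same way, was in the Hbb-bs window and in 11.2% of all windows, and was not found in the other 3. A match of letters is a description and not a site.

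**Figure D1:**
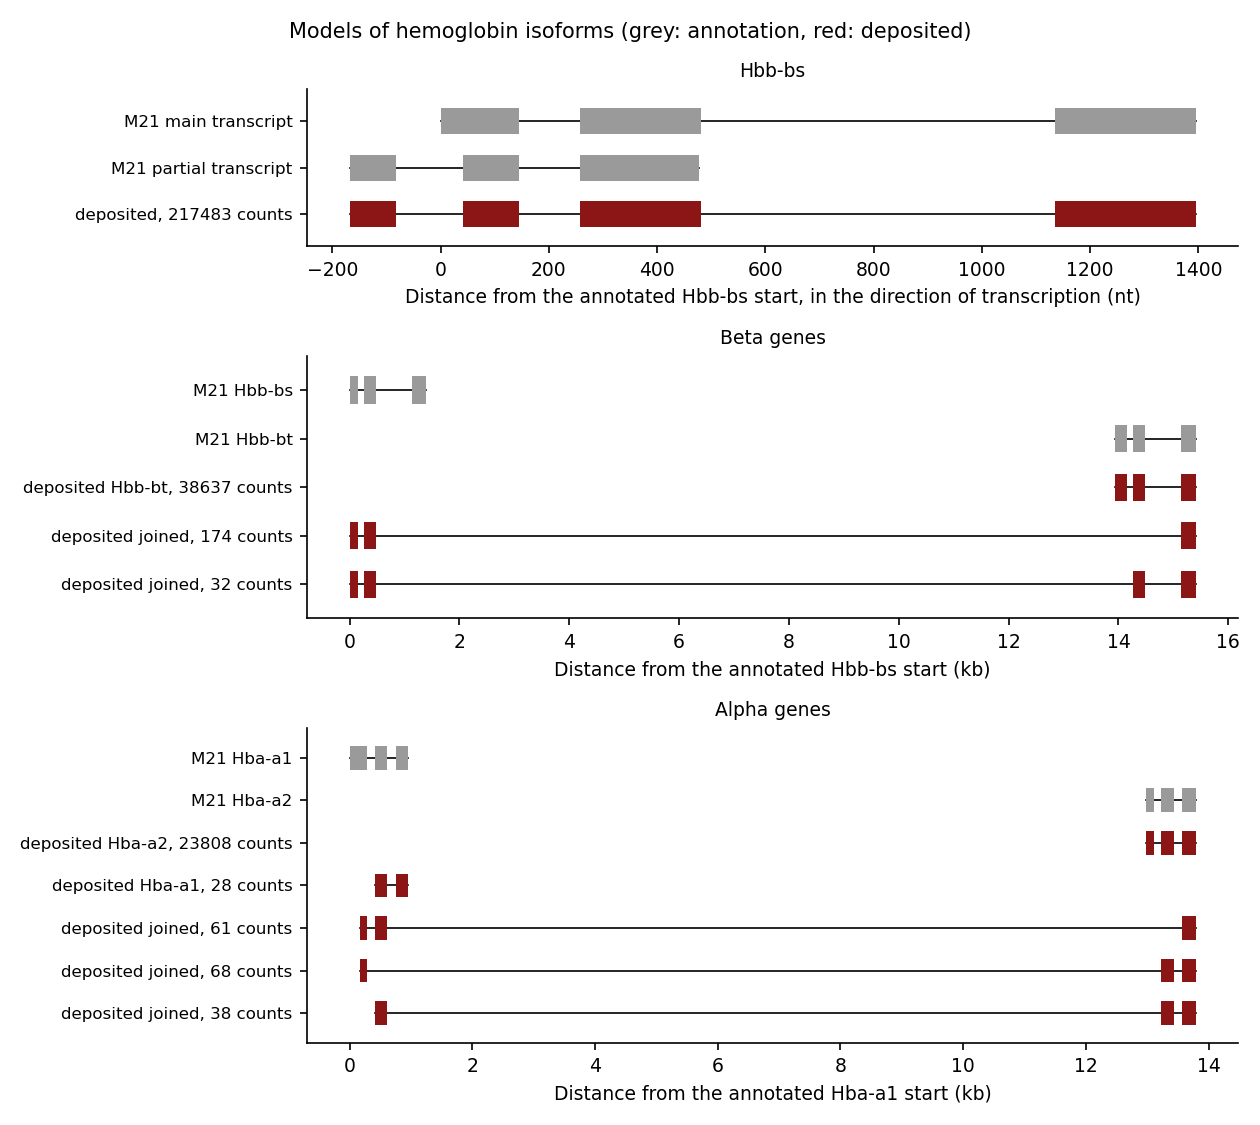
Exons (boxes) and introns (lines) of the hemoglobin models, to scale, with GENCODE M21 in grey and the deposited models in red. The x axes give the distance from the annotated start of Hbb-bs in nt (top) or kb (middle) and from that of Hba-a1 in kb (bottom). The Hbb-bs model with 217483 counts begins upstream of the annotated start, and 5 models join exons of neighbouring genes.

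The other genes had their counts mostly on annotated isoforms. Hbb-bt had 38637 of 38669 counts (99.9%) on ENSMUST00000098192.3 (chromosome 7, 103812524 to 103813996, minus strand), with 3 exons. Hba-a2 had 23808 of 23914 counts (99.6%) on ENSMUST00000093207.3 (chromosome 11, 32296489 to 32297298, plus strand), also with 3 exons. Hba-a1 was the exception with only 89 counts. Its main annotated transcript, ENSMUST00000093209.3 (32283511 to 32284465), had no row, and 28 counts lay on a 2-exon fragment under the identifier ENSMUST00000142555.1.

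A further 5 of the 9 isoforms joined exons of both genes of a pair. This was found in 2.09% of the 33517 models with at least 2 exons, where splice sites of different annotated genes met across an intron. All 5 ran from 5′ exons of the upstream gene to 3′ exons of the downstream gene. Any model with exons in order over neighbouring genes of the same strand must do so. The joining introns were between 12612 and 14663 nt long.

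On chromosome 7, a model with 174 counts went from exon 2 of Hbb-bs to exon 3 of Hbb-bt and was listed under Hbb-bs. Another with 32 counts went from exon 2 of Hbb-bs to exon 2 of Hbb-bt, so that it held exon 2 of both genes, and was listed under Hbb-bt. Both began with the full annotated exon 1 of Hbb-bs, at 103827928, and not with the upstream exon. On chromosome 11, models with 68, 61 and 38 counts joined Hba-a1 to Hba-a2. The model with 61 counts was the most abundant isoform under Hba-a1 (68.5% of its counts, 57.8 to 78.0%).

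Joined models held 373 of 280329 hemoglobin counts (0.133%, 0.120 to 0.147%). Their share was 0.696% of alpha counts (0.595 to 0.809%) and 0.0804% of beta counts (0.0698 to 0.0921%). By column they had 193 counts in rods, 89 in bipolar cells, 65 in Müller glia, 9 in cones, 17 in amacrine cells and 0 of 9 in ganglion cells. Amacrine cells had the highest share of the columns with any, with 1.28% (0.747 to 2.04%) against 0.0859% in Müller glia (0.0663 to 0.109%). These intervals did not overlap, and how often isoform shares of other genes fail to overlap between columns was not counted. Cones, at 0.458% (0.210 to 0.867%), overlapped amacrine cells and could not be set below them by counting error. Alpha counts, which were joined more often, were 51.5% of hemoglobin counts in amacrine cells and 6.47% in Müller glia. The part of this balance in the joined share was not tested.

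The genes of a pair are almost the same in sequence, which limits how far counts can be told apart. The coding sequences of Hbb-bs and Hbb-bt were both 441 nt and differed at 1 base. Counted from 1 at the A of the start codon, with the Hbb-bs base first, it was C417T, in exon 3 and at the third base of codon 139. Those of Hba-a1 and Hba-a2 were both 426 nt and also differed at 1 base, C381T, in exon 3 and at the third base of codon 127. Within the coding sequence a read can be placed by these bases only, and the windows around them show the base in capitals.
Hbb-bs, coding bases 402 to 431: ggtggctggagtggcCgctgccctggctca
Hbb-bt, coding bases 402 to 431: ggtggctggagtggcTgctgccctggctca
Hba-a1, coding bases 366 to 395: gcatgcctctctggaCaaattccttgcctc
Hba-a2, coding bases 366 to 395: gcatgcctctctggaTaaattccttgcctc

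Exon 2 was identical within each pair, over 223 nt in the beta genes and 205 nt in the alpha genes. Across the boundary of exons 2 and 3, the main annotated transcripts were identical for a run of 430 nt in the beta pair and 415 nt in the alpha pair. The boundary itself, 30 bases on each side, therefore reads the same in either gene and in a joined model. It is printed once for each pair because it is where 2 of the 5 joined models change gene.
Hbb-bs and Hbb-bt, exon 2 to exon 3: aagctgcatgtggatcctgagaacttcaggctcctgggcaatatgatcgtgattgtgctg
Hba-a1 and Hba-a2, exon 2 to exon 3: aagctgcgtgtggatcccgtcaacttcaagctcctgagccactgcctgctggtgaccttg

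After the coding sequence the beta pair had 71.0% identity in exon 3 and the alpha pair 82.8%. The 77 bases of Hba-a1 there were all found in Hba-a2, which has 16 more. The split between Hba-a1 and Hba-a2 is therefore uncertain, and alpha counts are summed below where a total is meant. The split between Hbb-bs and Hbb-bt rests on more differing bases, and was not checked on reads.

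The levels of hemoglobin differed widely between columns. Hbb-bs, the most abundant of the 4, had 62920 counts in Müller glia (10259 CPM), 116987 in rods (2110 CPM), 35607 in bipolar cells (1227 CPM), 1575 in cones (216 CPM), 568 in amacrine cells (11.8 CPM) and 0 in ganglion cells, which allows up to 0.855 CPM. The Müller glia column was highest and the ganglion cell column lowest, and no neighbouring intervals in this order overlapped. With large counts small differences separate intervals, and the share of all genes with separate intervals was not counted. Müller glia stood 4.86-fold above rods (4.81 to 4.91), 8.36-fold above bipolar cells (8.25 to 8.47), 47.6-fold above cones (45.3 to 50.1) and 871-fold above amacrine cells (802 to 948). Against the limit of 3 counts in the ganglion cell column the fold was 12003, and it would be lower against the end of the exact interval.

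Hbb-bs was the fifth most abundant gene of the Müller glia column. Its rank was 70 in rods, 178 in bipolar cells, 719 in cones and 3724 in amacrine cells. In absolute counts rods held 53.7% of Hbb-bs and Müller glia 28.9%.

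Hbb-bt, the second beta gene, had the same order. Its levels were 1286 CPM in Müller glia, 419 CPM in rods, 251 CPM in bipolar cells, 26.8 CPM in cones and 1.58 CPM in amacrine cells, on 7886, 23225, 7286, 196 and 76 counts. Ganglion cells had 0 counts. Müller glia were 3.07-fold above rods (2.99 to 3.15), a smaller step than for Hbb-bs.

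Hba-a2, under which nearly all alpha counts were listed, had 796 CPM in Müller glia, 253 CPM in rods, 142 CPM in bipolar cells, 25.7 CPM in cones, 14.0 CPM in amacrine cells and 2.28 CPM in ganglion cells, where it had 8 counts. The order of columns was again the same. Its range was narrower at the low end, because amacrine cells lay 56.8-fold below Müller glia (52.4 to 61.7). The corresponding fold for Hbb-bt was 816 (651 to 1037).

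Hba-a1 had between 1 and 41 counts in a column. Its levels were 2.45 CPM in Müller glia, 0.958 CPM in cones, 0.740 CPM in rods, 0.552 CPM in bipolar cells, 0.285 CPM in ganglion cells and 0.187 CPM in amacrine cells. Müller glia could not be set above cones by counting error, with a fold of 2.55 (0.980 to 7.40). Nor could rods, bipolar cells and cones be ordered among themselves.

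**Figure D2:**
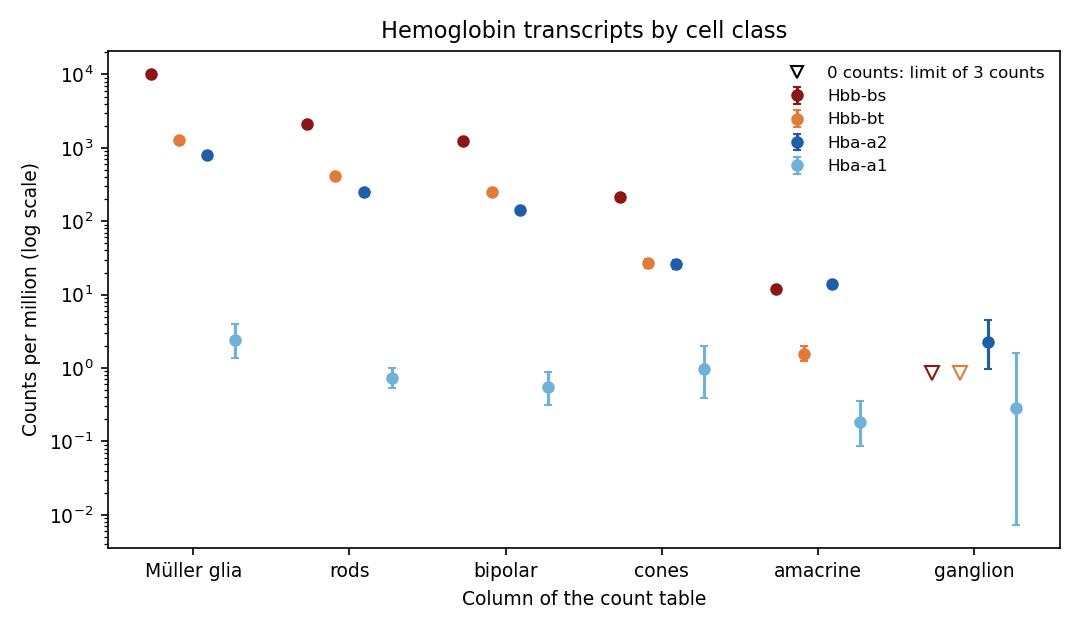
Level of each hemoglobin gene in each column, in CPM on a log axis. Points carry exact 95% counting intervals, and open triangles mark 0 counts at the limit of 3 counts. Hbb-bs falls from 10259 CPM in Müller glia to 11.8 CPM in amacrine cells, and Hba-a2 from 796 to 14.0 CPM.

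Summed over the 4 genes, hemoglobin made up 1.23% of all counts in Müller glia and 0.278% in rods. It made up 0.162% in bipolar cells, 0.0269% in cones, 0.00275% in amacrine cells and 0.000256% in ganglion cells. Müller glia were 4.43-fold above rods (4.40 to 4.47). In a column summed over cells, fewer cells with the transcript and less transcript per cell cannot be told apart.

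Unevenness over the columns was read from tau, an index that is 0 for equal levels and 1 for a gene in a single column. It was 0.931 for Hbb-bs, 0.891 for Hbb-bt, 0.890 for Hba-a2 and, on its 89 counts, 0.778 for Hba-a1, against a median of 0.658 over the 9569 genes with at least 100 counts. Hbb-bs was above 89.7% of these genes. All 4 had their highest CPM in Müller glia, as did 17.1% of those genes. A highest column at least 4 times the lowest, with 0 set to 3 counts, was common at 73.2%. Hbb-bs alone among the members had a Müller glia level at least 4 times every other column, which 5.14% of genes had.

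Both beta genes had 0 counts in ganglion cells, on 217657 and 38669 counts in all. Of 1812 genes with at least 10000 counts, 71 (3.92%) had 0 there, and Hbb-bs was number 11 and Hbb-bt number 34 of these by counts. The 6 rod markers also summed to 0 counts in that column, against 14585 CPM in rods and 1062 CPM in Müller glia. The part of rod RNA in the hemoglobin levels was not tested.

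The balance of alpha and beta transcripts differed between columns. Alpha genes held 6.47% of hemoglobin counts in Müller glia (6.30 to 6.65%), 8.77% in bipolar cells (8.51 to 9.03%), 9.13% in rods (8.99 to 9.28%) and 9.92% in cones (8.63 to 11.3%). In amacrine cells they held 685 of 1329 counts, or 51.5% (48.8 to 54.3%), and in ganglion cells all 9 (100%, 66.4 to 100%). Amacrine and ganglion cells thus stood above the other 4 columns, and the interval of Müller glia lay below all others. No such balance was computed for other genes. With annotated isoforms only, which leaves out all of Hbb-bs, the share was 38.2% in Müller glia, 37.6% in rods, 35.9% in bipolar cells and 49.1% in cones, so Müller glia were no longer lowest. Amacrine cells, at 89.8%, remained above these 4. Over all columns the alpha share was 8.56%, or 10.7 beta counts for each alpha count.

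The difference in amacrine cells lay mainly in the beta genes. From cones to amacrine cells the summed beta level went from 242 to 13.3 CPM, which is 18.2-fold (16.6 to 19.9). The summed alpha level went from 26.7 to 14.2 CPM, or 1.88-fold (1.59 to 2.21). Counts were not divided by length. Dividing them by the length of each model, which was chosen after the data were seen, gave an alpha share of 56.5% in amacrine cells.

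Within the beta genes, the share of Hbb-bt fell into 2 ranges. It was 17.0% in bipolar cells (16.6 to 17.3%) and 16.6% in rods (16.4 to 16.8%). Lower shares of 11.1% (10.9 to 11.4%), 11.1% (9.64 to 12.6%) and 11.8% (9.41 to 14.5%) were found in Müller glia, cones and amacrine cells in that order. The intervals within each set overlapped, and those of rods and bipolar cells did not overlap any of the others. How often the shares of other gene pairs separate in this way was not counted. This share uses only counts of the same column and so does not depend on the scaling.

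**Figure D3:**
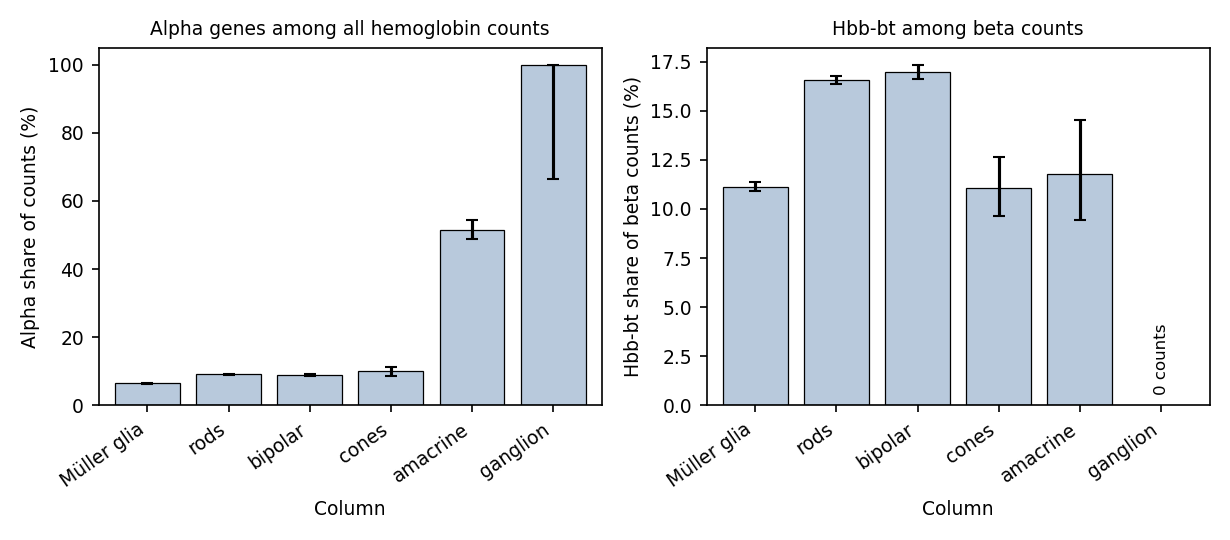
Share of alpha genes among hemoglobin counts (left) and of Hbb-bt among beta counts (right) in each column, in percent, with exact 95% counting intervals as error bars. The alpha share is between 6.47 and 9.92% in 4 columns, 51.5% in amacrine cells and 100% of 9 counts in ganglion cells. The Hbb-bt share is 16.6 and 17.0% in rods and bipolar cells and between 11.1 and 11.8% in the other columns with counts.

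The Hbb-bs model took nearly the same share in the 5 columns with counts. Its share was 99.3% in amacrine cells (564 of 568 counts, 98.2 to 99.8%) and it had 62895 of 62920 counts in Müller glia. The other columns lay between these, with 99.8% in cones and 99.9% in rods and bipolar cells. The only other Hbb-bs isoform in the table was the joined model with 174 counts, and the main annotated transcript had no row. The high share therefore describes the models available. The joined model begins at the annotated start, but how many reads of the 4-exon model begin there was not measured.

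An isoform at a locus named by position also overlapped Hbb-bs. It had 2 exons and 62 counts, from 103826534 to 103852805 on the minus strand, and shared its 3′ end with Hbb-bs. It had 35 counts in rods, 14 in bipolar cells, 11 in Müller glia, 2 in cones and 0 in the other columns.

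Genes of red blood cells were read beside hemoglobin. Of 24 listed erythroid genes, 13 had a row, and 9 of the 13 had at least 1 count in Müller glia. The numbers were 11 in bipolar cells, 9 in rods, 8 in cones, 7 in amacrine cells and 4 in ganglion cells. Of all 12996 genes with a symbol, 80.7% had a count in Müller glia, 92% in bipolar cells, 92.9% in rods, 77.6% in cones, 90.6% in amacrine cells and 55% in ganglion cells. Detection of the list in a column was therefore not above that of genes at large. As a list it did not peak in Müller glia: 9 of the 13 were highest in another column, among them Slc25a37, a mitochondrial iron carrier, with 110 of 190 counts in rods, and Trim58, with all 15 counts in amacrine cells. Alas2, Gypc and Rhd were among the 4 highest in Müller glia. These 3 were thin, with 251, 26 and 11 counts over all columns.

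Alas2, the red-cell enzyme for the first step of heme synthesis, had 67 counts in Müller glia (10.9 CPM), 157 in rods (2.83 CPM), 25 in bipolar cells (0.862 CPM), 2 in cones (0.274 CPM) and 0 in amacrine and ganglion cells. Its order over the 4 columns with counts was that of Hbb-bs. For each Alas2 count there were 1130 hemoglobin counts in Müller glia, 983 in rods and 1881 in bipolar cells. The ratio in cones, also 983, rests on 2 Alas2 counts and is very uncertain.

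Gypc, which encodes a glycophorin of the red-cell membrane, had 24 counts in Müller glia and 1 in rods. Rhd, a blood-group protein, had 9 counts in Müller glia and 0 in rods. By contrast Bpgm, which makes the regulator of oxygen release 2,3-bisphosphoglycerate, was at 89.2 to 182 CPM in every column. Fech, the last enzyme of heme synthesis, was between 6.30 and 29.9 CPM in every column and highest in amacrine cells. Summed over the list, where Bpgm weighs most, the level was 142 CPM in Müller glia and 185 CPM in rods.

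The profile over the 6 columns was then compared with that of every other gene with at least 100 counts. Likeness was measured as 1 minus the overlap of the shares of CPM over the columns, which is 0 for the same profile and 1 for no overlap. Over 9566 other genes the median distance from the 4 hemoglobin genes summed was 0.627. The nearest gene was Alas2, at 0.0390, followed by Capg at 0.0508, Ang at 0.0534, Fcgr3 at 0.0540 and Lsp1 at 0.0544. The next gene was at 0.0547, so the end of this list is not sharp. Of the members, Hbb-bs, with 77.6% of the hemoglobin counts, was at 0.0180 from the sum. Hba-a2, at 0.0784, and Hbb-bt, at 0.0793, were farther from it than all of these genes. The ranking is thus mainly one of likeness to Hbb-bs. These are distances over 6 points that share depth and library, with no test.

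Capg encodes an actin-capping protein of macrophages, Fcgr3 an antibody receptor of macrophages and microglia, and Lsp1 a protein of white blood cells. Ang encodes the secreted ribonuclease angiogenin. Their levels in Müller glia were 15.3 CPM for Capg, 34.2 CPM for Ang and 55.9 CPM for Fcgr3. Those in rods were 3.28, 7.09 and 15.9 CPM. Lsp1 had 129 counts in Müller glia and 310 in rods. The step from rods to Müller glia was between 3.51 and 4.83-fold in these 4 genes, 3.86-fold for Alas2 and 4.86-fold for Hbb-bs. For Hbb-bt, at 3.07-fold, and Hba-a2, at 3.14-fold, it was smaller than in any of these.

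Markers of cell types without a column moved with hemoglobin in part. All 6 microglial markers were highest in Müller glia, but Csf1r was nearly level, at 4.89 CPM there (30 counts) and 4.87 CPM in rods (270 counts). P2ry12 had 12 counts in Müller glia, and C1qa and C1qb made up most of the sum of these markers. Their sum was 1238 CPM there, 569 CPM in rods, 110 CPM in bipolar cells, 42.6 CPM in cones, 34.3 CPM in amacrine cells and 8.83 CPM in ganglion cells, in the same order as hemoglobin. In rods they were at 46.0% of the Müller glia level, and hemoglobin was at 22.5%. In amacrine cells they were at 2.77%, and hemoglobin was at 0.223%.

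All 3 endothelial markers with a row were also highest in Müller glia, with 28.9 CPM in sum there against at most 1.17 CPM in any other column. Of 5 pericyte markers with a row, 4 were highest in Müller glia, and Vtn was highest in rods at 2570 CPM. Of 3 platelet genes with a row, 2 were highest in Müller glia, and Itga2b had all of its 32 counts in bipolar cells. The platelet genes, mostly Pf4 with 655 counts, summed to 21.4 CPM in Müller glia and 9.29 CPM in rods. None of the 4 neutrophil markers had a row. The part of these cell types in the hemoglobin levels was not tested.

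The profile of the class markers themselves was different. The 4 Müller glia markers with a row were at 41140 CPM in their own column, of which Apoe had 39298 CPM. Their sum was at 2.83% of that in rods and 0.788% in bipolar cells. Hemoglobin was at 22.5% in rods and 13.1% in bipolar cells. The distance of the Müller glia list from hemoglobin was 0.232, against 0.146 for the microglial, 0.153 for the platelet and 0.204 for the endothelial list. Of the single Müller glia markers, Rlbp1 was at 0.222, Apoe at 0.232, Slc1a3 at 0.240 and Dkk3 at 0.546. The pericyte list, at 0.558, and the erythroid list, at 0.582, were farther from hemoglobin than the Müller glia list. Their sums are mostly Vtn (distance 0.593) and Bpgm (0.595), and single genes of these lists differed. Of the pericyte markers, Rgs5 was at 0.207 and Kcnj8 at 0.223. Of the erythroid genes, Alas2 was at 0.0390, but Fech was at 0.627, Slc25a37 at 0.630 and Epor at 0.658. The distance of the rod list was 0.756.

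**Figure D4:**
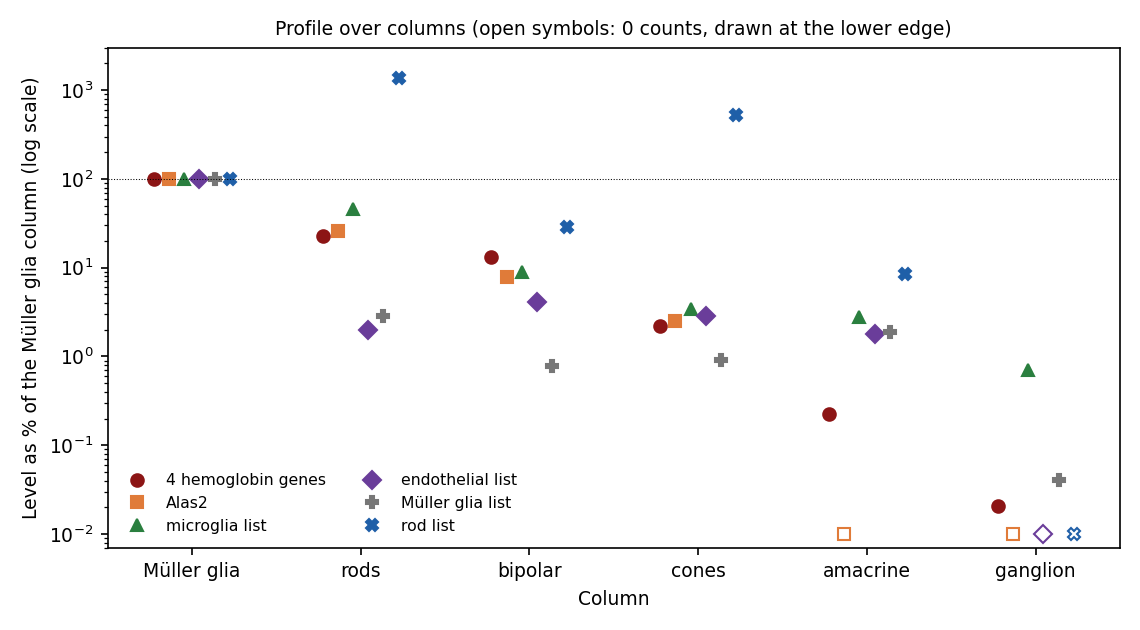
Levels in each column as a percent of the level in the Müller glia column, on a log axis, for the 4 hemoglobin genes summed, Alas2 and 4 marker lists. Open symbols at the lower edge stand for 0 counts. Hemoglobin is at 22.5% in rods, with Alas2 close to it, where the Müller glia list is at 2.83% and the rod list is far above 100%.

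Other globins had other patterns. Cygb, which encodes cytoglobin, was highest in ganglion cells at 193 CPM and amacrine cells at 162 CPM, and was at 5.87 CPM in Müller glia. Ngb, which encodes the neuronal neuroglobin, was at 0.163 CPM in Müller glia, against 7.30 CPM in amacrine and 17.4 CPM in ganglion cells. Both were thus highest in the columns where hemoglobin was lowest. Hbq1a, a theta globin of the alpha cluster, had 17 counts in all. The other 6 listed globins, among them the embryonic Hbb-y and Hba-x, had no row.

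The genes of heme synthesis with a row had counts in all columns except for Alas2, which had 0 in amacrine and ganglion cells. Of 9 listed, 8 had a row. Alas1 and Alas2 were among the 3 highest in Müller glia, and the other 5 were highest elsewhere. Alas1, the form of the first enzyme found in all tissues, was at 53.0 CPM in Müller glia and 26.8 CPM in rods, and was thus above Alas2 in both. The list summed to 289 CPM in Müller glia and 134 CPM in amacrine cells, a far smaller range than that of hemoglobin.

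Genes that clear heme and store iron did not share the profile as lists. Of 6 clearance genes with a row, 1 was highest in Müller glia, Blvrb, a biliverdin reductase, with 152 CPM there and 18.5 CPM in rods. Hmox1, the inducible heme oxygenase, was at 12.8 CPM in rods and 9.78 CPM in Müller glia, and Hmox2, the constant form, was between 83.1 and 220 CPM in every column. Of 5 iron genes with a row, Trf, which encodes transferrin, was highest in Müller glia at 32.6 CPM against at most 2.31 CPM elsewhere. Ftl1, the ferritin light chain, was at 5140 CPM in Müller glia and slightly higher, at 5501 CPM, in amacrine cells.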

How the data were processed

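The authors deposited whole-number counts per isoform in 6 class columns and transcript models, whose source column reads FLAIR. The build is mm10, per the submitters' processing notes. Per the labels the columns name no library, so all were taken as pooled, and 0 were left unused. Whether counts are reads or molecules, how cells were typed and how doublets were treated are not given in the sources used here. The coordinates in the deposited models (start and end, another kind of value than counts) were compared with GENCODE M21 on GRCm38.

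Counts were summed by gene and scaled to 1000000 per column. Intervals are exact (Poisson, Clopper-Pearson, conditional binomial for folds), at 95%, for counting error only. A count of 0 was given a limit of 3 counts, which is below the upper end of its exact interval. No test between classes was made, since a class is 1 sample. Steps used Python 3.11.15, pandas 2.3.3, scipy 1.17.1 and, for alignments, biopython 1.88. Alternatives were other scalings (trimmed mean of M-values, median of ratios), minimums on counts and exons, annotated isoforms only, equal depth and division by model length. Isoforms with the same introns were also summed. The scripts for tau, the fold call and profile distance were tested on simulated data. Named genes were the members, the listed genes and the 5 genes nearest in profile. Members and lists were chosen with earlier results of these data known. Some listed genes are not reported here by name.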

Additional observations from a re-analysis of the deposited data

How the results depend on the processing

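The order of the columns for summed hemoglobin was the same under all 5 alternatives for levels. The fold of Müller glia over rods was 4.97 with the trimmed mean of M-values, 5.72 with the median of ratios and 3.09 with annotated isoforms only, which leaves out all of Hbb-bs. By total counts the median gene was at -0.37 on the log2 scale in Müller glia relative to rods, and at -0.21 and -0.0029 with these scalings. With annotated isoforms only the alpha share was 89.8% in amacrine cells and 35.9 to 49.1% in the MG, Rod, BC and Cone columns, with BC lowest in place of MG. In amacrine cells it was 56.5% with counts divided by model length, an alternative added after the data were seen. The share of the Hbb-bs model was 99.946% at equal depth, over 20 draws. Tau of the 4 genes summed was 0.930 and 0.939 with the other scalings, 0.905 without the RGC column and 0.458 on log2(CPM + 1). For the scalings and equal depth the cause was not tested. Of 79 comparisons for single columns and genes, 44 stayed within counting error and 35 moved. Some of the 44 could not move. Minimums on counts and exons removed no hemoglobin isoform, and summing isoforms with the same introns merged none. Shares under these alternatives were therefore the same by construction. The RGC column had 9 hemoglobin counts, so its shares have wide intervals. No paired analysis was possible because no column names a library, and no library could be left out.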
